A study of Mus musculus with 24 samples.

Results

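The 39 genes described here act in 2 successive stages of the cell cycle. The DNA replication set holds 19 genes: Mcm2, Mcm3, Mcm4, Mcm5, Mcm6, Mcm7, Mcm10, Pcna, Cdc6, Cdc45, Cdt1, Gins2, Rrm1, Rrm2, Tyms, Ccne1, Ccne2, E2f1 and Hells. The G2/M set holds 20 genes: Mki67, Top2a, Ccna2, Ccnb1, Ccnb2, Cdk1, Aurka, Aurkb, Bub1, Bub1b, Plk1, Cdc20, Birc5, Cenpe, Cenpf, Kif11, Kif20a, Kif23, Tpx2 and Nusap1. They were selected by symbol from a gene count table with 55487 distinct genes, and all 39 were among the 23059 genes that passed the filter on low counts. The counts come from 24 bulk RNA-seq libraries of mouse LSK cells, a sorted compartment of blood stem cells and early progenitors, in 6 groups of 4 biological replicates, with 31233688 to 89774511 counts per library. Newborn liver (postnatal day 0, P0) gave a wild-type group (P0 WT) and a group with the human MLL::ENL fusion (ME), a leukaemia oncogene under Tet-off control, with induction at E10.5 before birth (P0 ME). Bone marrow at postnatal day 28 (P28) gave WT, ME induced at E10.5, ME induced at P0, and a further E10.5-induced ME group labelled RLT Vav Txp, a name the labels do not expand. The labels give neither the promoter behind the transactivator nor the strain, and the series' design text describes lineage-negative KIT-positive cells where the labels say LSK. Since every P0 sample is liver and every P28 sample marrow, age and tissue cannot be told apart.

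The replication genes act around the start of S phase. CDC6 and CDT1 load the MCM helicase onto origins, MCM10, CDC45 and the GINS complex help switch it on, PCNA is the sliding clamp of the DNA polymerases, and ribonucleotide reductase and thymidylate synthase supply deoxynucleotides. Cyclin E with CDK2 starts S phase, and E2F factors drive transcription of many of these genes. The G2/M genes code for cyclins A and B, CDK1, mitotic kinases, the spindle checkpoint, kinesin motors and kinetochore proteins, and many of them are held in check in resting cells by the DREAM complex, which acts through a DNA element called the cell cycle genes homology region (CHR), often beside CCAAT boxes. Adult marrow stem cells are mostly quiescent, whereas fetal liver stem cells cycle.

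The promoters of the sets differed in the motifs they held, so 3 of each set are printed: for each set, 2 genes that rose with E10.5 induction and 1 that did not pass the test. Each line gives the 170 bases before the RefSeq start on GRCm38.p6, 5′ to 3′ on the gene's strand, and capitals mark an E2F motif, a CHR motif or a CCAAT box on either strand. The letters searched were TTTCCCGC, TTTGGCGC, TTTCGCGC and TTTGCCGC as E2F motifs, TTTGAA and TTCGAA as CHR motifs and CCAAT, counting overlapping matches separately.
Mcm5 (chr8:75109339-75109508, + strand): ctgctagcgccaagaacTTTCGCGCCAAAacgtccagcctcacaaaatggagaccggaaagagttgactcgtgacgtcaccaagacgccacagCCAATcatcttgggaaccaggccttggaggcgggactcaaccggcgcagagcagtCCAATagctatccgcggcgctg
Mcm6 (chr1:128359706-128359875, - strand): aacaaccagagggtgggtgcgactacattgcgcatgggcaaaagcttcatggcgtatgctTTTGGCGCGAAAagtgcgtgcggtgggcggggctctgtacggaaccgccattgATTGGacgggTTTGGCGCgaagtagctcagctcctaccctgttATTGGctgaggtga
Tyms (chr5:30073626-30073795, - strand): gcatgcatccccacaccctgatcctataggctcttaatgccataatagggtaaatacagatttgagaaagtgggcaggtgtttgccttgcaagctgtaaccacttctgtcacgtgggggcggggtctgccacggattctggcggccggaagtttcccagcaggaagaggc
Top2a (chr11:99024190-99024359, - strand): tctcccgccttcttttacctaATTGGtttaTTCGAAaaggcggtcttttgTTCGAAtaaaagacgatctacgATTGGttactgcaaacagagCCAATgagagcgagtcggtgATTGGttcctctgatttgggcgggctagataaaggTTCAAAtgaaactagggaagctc
Kif11 (chr19:37376212-37376381, + strand): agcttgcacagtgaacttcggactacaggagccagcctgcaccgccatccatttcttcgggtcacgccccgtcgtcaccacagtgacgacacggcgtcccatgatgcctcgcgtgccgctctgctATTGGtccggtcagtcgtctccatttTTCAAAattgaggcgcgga
Birc5 (chr11:117849067-117849236, + strand): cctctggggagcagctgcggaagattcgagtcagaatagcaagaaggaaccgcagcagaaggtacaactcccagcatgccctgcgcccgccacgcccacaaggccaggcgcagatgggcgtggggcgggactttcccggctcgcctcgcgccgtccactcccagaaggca
In the stretches shown, Mcm5 held 2 overlapping E2F motifs and 2 CCAAT boxes, and Mcm6 held 3 E2F motifs and 2 CCAAT boxes. Top2a held 3 CHR motifs among 4 CCAAT boxes, and Kif11 held 1 of each. The Tyms and Birc5 stretches held none of these letters.

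RefSeq promoters of 250 bases before to 50 bases after the start were matched for 16 of the 19 replication genes and 16 of the 20 G2/M genes. An E2F motif was found in 7 replication promoters (43.75%) and 1 G2/M promoter (6.25%, that of Cdk1), against 2.327% of all 27025 promoters. A CHR motif was found in 3 replication promoters (18.75%) and 12 G2/M promoters (75.0%), against 19.486% of all promoters. All 12 of those G2/M promoters also held a CCAAT box, a pair found in 7.734% of all promoters. Mcm3, Mcm5, Mcm6, Mcm7, Cdc6, Cdt1 and Hells carried the E2F motif. Ccnb1, Birc5, Cenpe and Nusap1 were the matched G2/M promoters without a CHR motif in the window. These are matches of letters, not measured binding. The printed stretches are examples, and whether a motif went with the rise was not tested. Of the replication genes with an E2F motif, all but Cdt1 rose with E10.5 induction. Mcm2, Mcm10, Cdc45 and Rrm1 rose without an E2F motif, and Nusap1 rose with none of the motifs. Cdk1 held all of the motifs and Kif23 a CHR motif and a CCAAT box, and neither passed the test.

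The samples differed in more than genotype. Kit averaged 688 CPM (counts scaled by TMM to a common library size) in P28 WT and 780.3 in P0 WT, and Ly6a (Sca-1) 296 and 139 CPM, so the defining transcripts of the sort were present in both tissues. The 9 LSK markers summed to 4261 to 5367 CPM over the P28 WT, E10.5-induced and P0-induced libraries, but only 2046 to 3065 CPM in RLT Vav Txp libraries. The markers did not move together. Against P28 WT, the RLT Vav Txp mean was lower for Flt3 (222 against 1175 CPM), Cd34 (519.5 against 1237), Hlf, Ly6a and Meis1. It was higher for Kit (805 against 688 CPM), Mecom, Procr and Slamf1. Among P0 libraries the LSK marker sum was 2183 to 3242 CPM in 6 libraries and 4428 and 4817 in the libraries numbered 1 of WT and ME. Macrophage markers (8 genes) summed to 46.3 to 105 CPM in the 3 other P28 groups and to 728.5 to 3132 in RLT Vav Txp, and erythroid markers (7 genes) to 93.03 to 357 and 819 to 1608 CPM. Both P0 libraries numbered 1 also had the lowest macrophage, erythroid and neutrophil sums of their groups (131 and 122.7, 233 and 71.4, 854 and 716 CPM). The other 6 P0 libraries held 1112 to 1561 CPM of macrophage and 3592 to 11600 CPM of erythroid markers. Neutrophil markers (7 genes) summed to 9089 to 14120 CPM in the 3 of these that are WT and 15340 to 27270 in the 3 that are ME, against 1889 to 6435 in RLT Vav Txp and 648 to 1765 in the other P28 libraries. Mast cell and basophil markers (7 genes) reached 5802 CPM in P0 WT library 1, against 44.9 to 1216 in the other P0 and 7.87 to 196 in the P28 libraries, and up to 4 of the 7 were at 0 in a P28 WT library. Hepatocyte markers (5 genes) summed to 24.3 to 183 CPM at P0 and 11.2 to 47.2 at P28, and megakaryocyte markers (5 genes) to 195 to 370 CPM in RLT Vav Txp and 26.3 to 61.5 in the other P28 groups. The part of these cells in the results below was not tested.

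**Figure D1:**
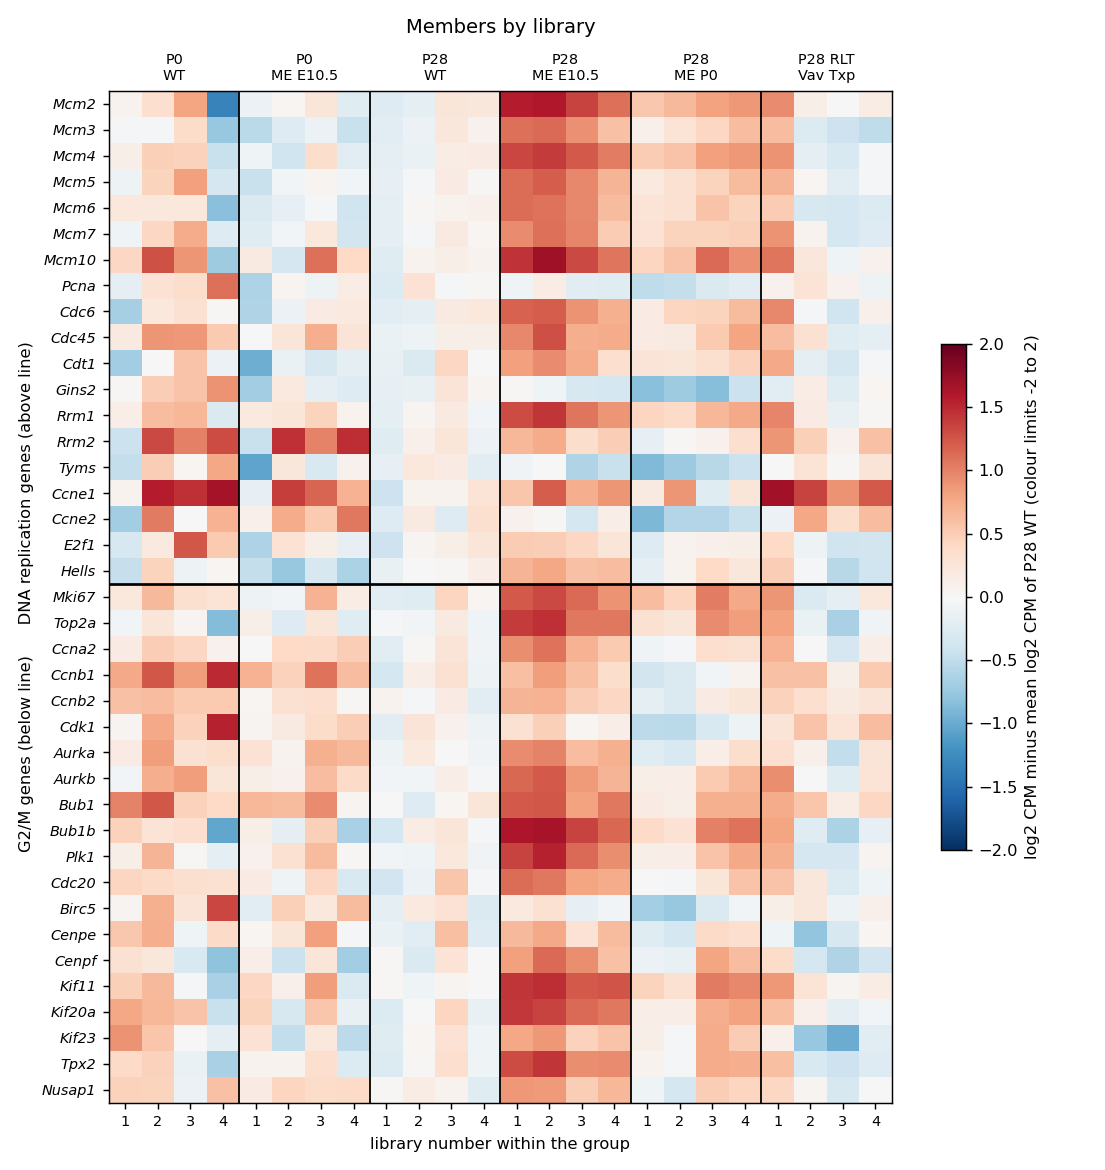
Level of each of the 39 genes (rows, replication genes above the line) in each of the 24 libraries (columns, 4 per group), as log2 CPM minus the mean log2 CPM of P28 WT. The 4 libraries of P28 ME E10.5 are red for most genes of both sets, while Pcna, Gins2, Tyms, Ccne2 and Birc5 stay near white or blue there.

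In P28 marrow, genes of both sets were higher with ME induced at E10.5 than in WT. Of the 39 genes, 27 rose and none fell (edgeR quasi-likelihood test, Benjamini-Hochberg adjusted p under 0.05, the rule for every call below), where of all tested genes 12.3% were called, 7.82% higher (1804 genes) and 4.44% lower (1023 genes). Scaled by plain library totals, 24 members rose and none fell, while over all genes 750 were higher and 1501 lower. The 27 were 11 of 19 replication genes and 16 of 20 G2/M genes. The median log2 fold change was 0.89 over the members and -0.10 over all genes tested. In 31 members the 4 ME and the 4 WT libraries did not overlap, as in 28.2% of all genes. In bulk RNA, more cells of one kind and more RNA per cell cannot be told apart.

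The helicase genes rose together: Mcm2 to Mcm7 and Mcm10 were all called, with log2 fold changes from 0.89 (Mcm7) to 1.40 (Mcm2). Mcm2 (ENSMUSG00000002870, chromosome 6, 88883474 to 88898780, GRCm38) codes for a helicase subunit and read 172, 179, 244 and 240.4 CPM in the WT libraries and 609, 625, 528 and 443 CPM in the E10.5-induced libraries (log2 fold change 1.40, SE 0.28, edgeR adjusted p = 0.00337). Mcm5 (ENSMUSG00000005410, chromosome 8, 75109569 to 75128439), another subunit, read 239, 262, 300.4 and 271 CPM in WT and 578, 616, 522 and 427 CPM in E10.5-induced ME (log2 fold change 1.00, SE 0.21, edgeR adjusted p = 0.00483). For both genes every ME library was above every WT library. The other members with the largest rises in this set were Mcm10, which joins the helicase as it is activated (log2 fold change 1.39, SE 0.32, edgeR adjusted p = 0.00764), and Mcm4 (1.24, SE 0.23, edgeR adjusted p = 0.00226). The loading factor Cdc6 (1.00), the helicase partner Cdc45 (0.94), the large ribonucleotide reductase subunit Rrm1 (1.18) and the chromatin remodeller Hells (0.66) were the other replication genes that rose.

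The replication set was not uniform, and 8 of its genes did not pass the test. The clamp gene Pcna (ENSMUSG00000027342, chromosome 2, 132249162 to 132253314) read 233, 343, 274 and 286 CPM in WT and 265, 313, 244 and 237 CPM in E10.5-induced ME, so the groups lay over each other (log2 fold change -0.10, SE 0.20, edgeR adjusted p = 0.797). Gins2, a subunit of the GINS complex, had a log2 fold change of -0.19, the thymidylate synthase gene Tyms -0.27 and the cyclin E2 gene Ccne2 -0.04. The small ribonucleotide reductase subunit Rrm2 (ENSMUSG00000020649, chromosome 12, 24708241 to 24714146) read 144, 183, 202 and 158 CPM in WT and 271, 286, 217 and 239 CPM in ME (log2 fold change 0.56, SE 0.31, edgeR adjusted p = 0.262). Cyclin E1 (Ccne1, ENSMUSG00000002068, chromosome 7, 38097984 to 38107534) read 9.73, 13.5, 13.5 and 15.6 CPM in WT and 19.0, 29.8, 21.5 and 23.8 CPM in ME (log2 fold change 0.84, SE 0.32, edgeR adjusted p = 0.0828). For the transcription factor E2f1 (ENSMUSG00000027490, chromosome 2, 154559407 to 154569892) the values were 34.7, 48.1, 50.4 and 54.5 CPM in WT and 66.1, 65.4, 61.7 and 54.7 CPM in ME (log2 fold change 0.40, SE 0.25, edgeR adjusted p = 0.315). In these last 3 genes the groups did not overlap although the test was not passed. The licensing factor Cdt1 had a log2 fold change of 0.70 (edgeR adjusted p = 0.0596).

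In the G2/M set Bub1b, Kif11 and Plk1 had the largest rises. Bub1b, which codes for the checkpoint kinase BUBR1, read 71.0, 100.5, 107 and 89.8 CPM in WT and 279, 286, 232 and 202 CPM in E10.5-induced ME (log2 fold change 1.44, SE 0.30, edgeR adjusted p = 0.00474). Kif11, the kinesin that separates spindle poles, read 107, 99.9, 111 and 107 CPM in WT and 284, 296, 249 and 254 CPM in ME (1.35, SE 0.25, edgeR adjusted p = 0.00226). The WT libraries of Kif11 lay within 99.9 and 111 CPM, and every ME library was at 249 CPM or above. Plk1 (ENSMUSG00000030867, chromosome 7, 122159439 to 122169873), a kinase of mitotic entry and spindle assembly, read 45.8, 44.7, 55.1 and 45.6 CPM in WT and 121, 139, 104 and 91.1 CPM in ME (1.25, SE 0.23, edgeR adjusted p = 0.00220). Top2a (ENSMUSG00000020914, chromosome 11, 98992943 to 99024189), which untangles sister chromatids, read 299, 296, 350.4 and 291 CPM in WT and 810, 847, 642 and 638 CPM in ME (1.25, SE 0.25, edgeR adjusted p = 0.00340). The proliferation marker Mki67 (ENSMUSG00000031004, chromosome 7, 135689784 to 135716361) read 57.7, 56.8, 91.1 and 69.2 CPM in WT and 159, 167, 148 and 126 CPM in ME (1.13, SE 0.23, edgeR adjusted p = 0.00360). In none of these genes did the groups overlap.

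The cyclin genes Ccna2 (0.81), Ccnb1 (0.59) and Ccnb2 (0.57) rose as well. Cyclin B1 (Ccnb1, ENSMUSG00000041431, chromosome 13, 100778650 to 100786570) read 104, 145, 163 and 122 CPM in WT and 200.4, 234, 200.1 and 168 CPM in E10.5-induced ME (log2 fold change 0.59, SE 0.18, edgeR adjusted p = 0.0332). The nearest libraries of the 2 groups were 163 and 168 CPM, and the call was lost when any of 6 libraries was left out (0.44 without P28 WT library 1, edgeR adjusted p = 0.179). The lost calls came without WT library 1, 2 or 4 and without ME library 1, 2 or 3. It was lost too with RLE factors (edgeR adjusted p = 0.0663), plain totals (0.0800), no filter (0.0800) and offsets for coding length and GC content (0.0851). Cdk1, the partner kinase of the B cyclins, and Birc5, which codes for survivin, did not pass the test (0.24, SE 0.21, edgeR adjusted p = 0.511, and 0.06, SE 0.23, edgeR adjusted p = 0.903, on the log2 scale). The kinetochore motor Cenpe (0.54) and the cytokinesis kinesin Kif23 (0.67) were the other G2/M genes that did not pass. Leaving out 1 library at a time, 19 to 28 members were called in this comparison. Marker sums of other cells differed too: neutrophil markers (7 genes) were at 678 to 889 CPM in WT and 988 to 1765 in ME, B-lymphoid markers (7 genes) at 231 to 323 and 396 to 594, and macrophage markers at 75.6 to 105 and 47.7 to 75.2 CPM. Their part in the result was not tested.

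**Figure D2:**
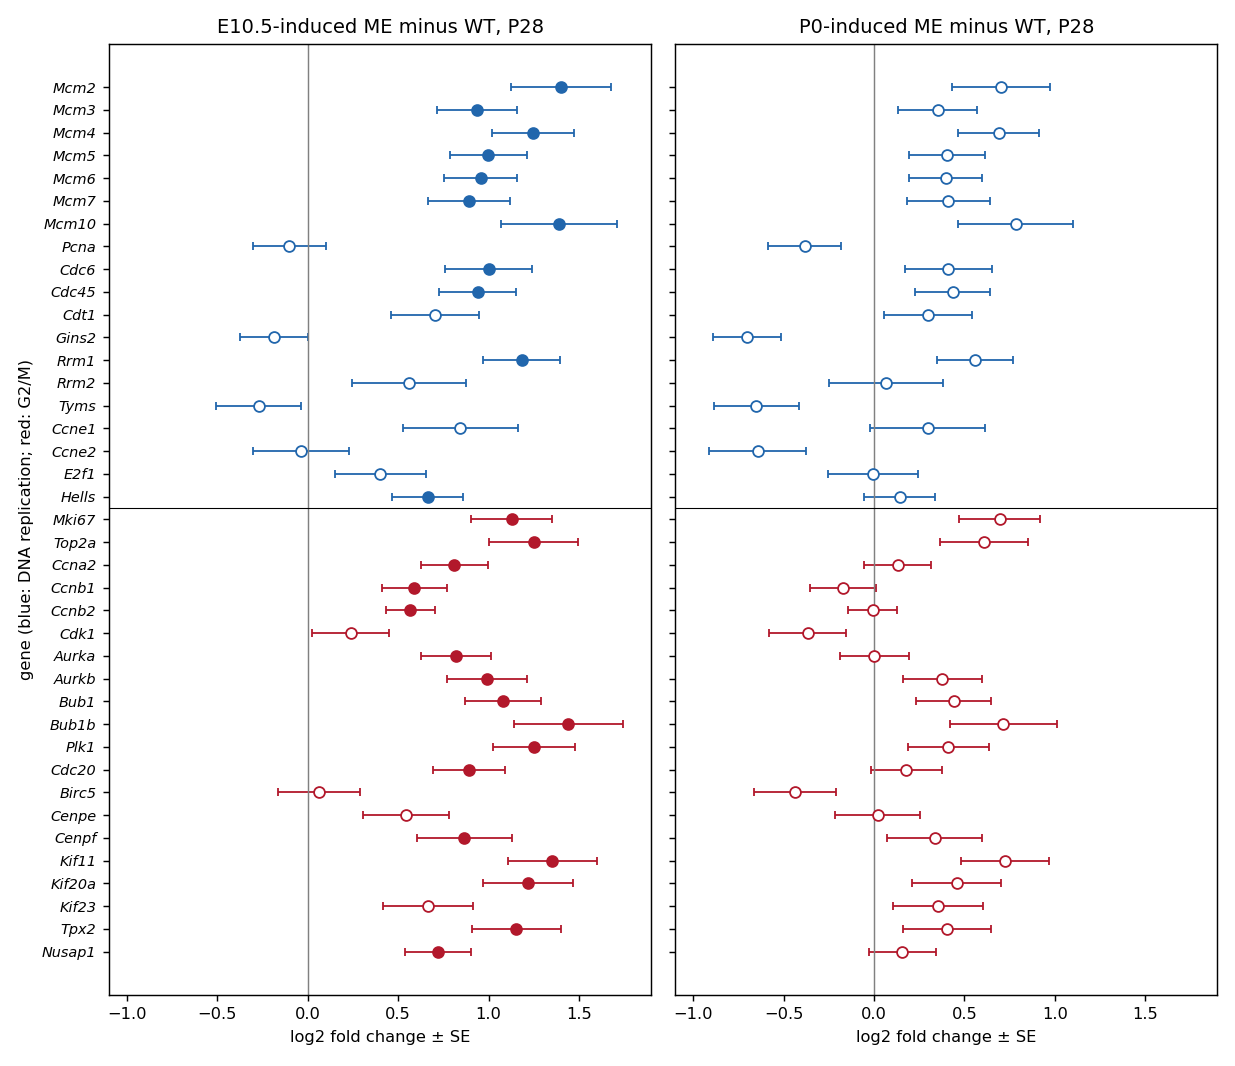
Log2 fold change against P28 WT with its SE for each gene, with ME induced at E10.5 (left) and at P0 (right); filled points passed an edgeR adjusted p of 0.05 and open points did not. On the left 27 points are filled, from 0.57 to 1.44, and on the right none is, although 30 of 39 lie above 0.

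With ME induced at P0, no member passed the test against P28 WT (0 of 39, where 1.57% of all tested genes were called, 0.494% higher and 1.08% lower), and 13 members had an unadjusted p under 0.05. DESeq2 called 2 members and limma voom with quality weights 15 (11 higher, 4 lower). The median log2 fold change was 0.35 in either set, against -0.09 over all genes tested, and in 14 members the groups did not overlap, where 24.8% of all genes did not. Mcm2, Mcm4, Mcm5, Mcm6, Mcm7 and Mcm10 were among these, Mcm3 was not, and Rrm1 (0.56), Kif11 (0.72) and Bub1b (0.72) were. Lower than WT without overlap were Gins2, Tyms (80.8 to 110.6 CPM against 127.7 to 172.9 in WT) and Ccne2 (35.8 to 48.6 against 55.7 to 83.1). Mcm5 read 307, 331, 364 and 416 CPM (log2 fold change 0.40, SE 0.21, edgeR adjusted p = 0.284). Every P0-induced library lay above every WT library for Mcm5, the nearest being 307 and 300.4 CPM. Top2a read 379, 363, 594 and 550 CPM (0.61, SE 0.24, edgeR adjusted p = 0.157), and Mki67 104, 90.9, 137 and 114 CPM (0.70, SE 0.22, edgeR adjusted p = 0.0870). Libraries 3 and 4 were the higher pair for Top2a, and for Mki67 1 library lay just under the highest WT library.

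For the other genes with every library shown, the P0-induced libraries overlapped those of WT. Pcna read 198, 202, 230.3 and 242 CPM (log2 fold change -0.38, SE 0.20, edgeR adjusted p = 0.290), Rrm2 151, 172, 181 and 215 CPM (0.07, SE 0.31, edgeR adjusted p = 0.936) and Ccnb1 102, 108, 127 and 138 CPM (-0.17, SE 0.18, edgeR adjusted p = 0.649). These 3 lay within 0.38 of the WT level on the log2 scale. E2f1 read 38.7, 48.5, 49.8 and 50.1 CPM (-0.00, SE 0.25, edgeR adjusted p = 0.998), Ccne1 14.6, 23.8, 10.9 and 15.2 CPM (0.30, SE 0.32, edgeR adjusted p = 0.655) and Plk1 51.5, 52.2, 70.5 and 80.2 CPM (0.41, SE 0.22, edgeR adjusted p = 0.309). Gins2 came closest to a call, at 32.8, 35.5, 32.5 and 43.4 CPM against 52.2 to 70.0 CPM in WT (log2 fold change -0.70, SE 0.19, edgeR adjusted p = 0.0516). For Gins2 every P0-induced library was below every WT library, opposite in direction to Mcm5.

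The times of induction were also set against each other directly. All 39 log2 fold changes of P0-induced minus E10.5-induced ME were below 0 (-0.84 to -0.28, median -0.59, all genes tested -0.02), yet none was called, where 0.0477% of all tested genes were (0.026% higher, 0.0217% lower). Of the members, 29 had an unadjusted p under 0.05, and in 27 the groups did not overlap, as in 11.8% of all genes. The lowest edgeR adjusted p was 0.170, for Aurka, the spindle pole kinase (-0.82, SE 0.19), and for the cyclin gene Ccnb2 (-0.57, SE 0.14). Plk1 had the largest difference (-0.84, SE 0.22, edgeR adjusted p = 0.403), with 51.5 to 80.2 CPM in P0-induced and 91.1 to 139 CPM in E10.5-induced libraries. The count differed between methods: DESeq2 called 3 members, edgeR on these 2 groups alone 24, and limma voom with quality weights 37, each time lower in P0-induced ME.

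**Figure D3:**
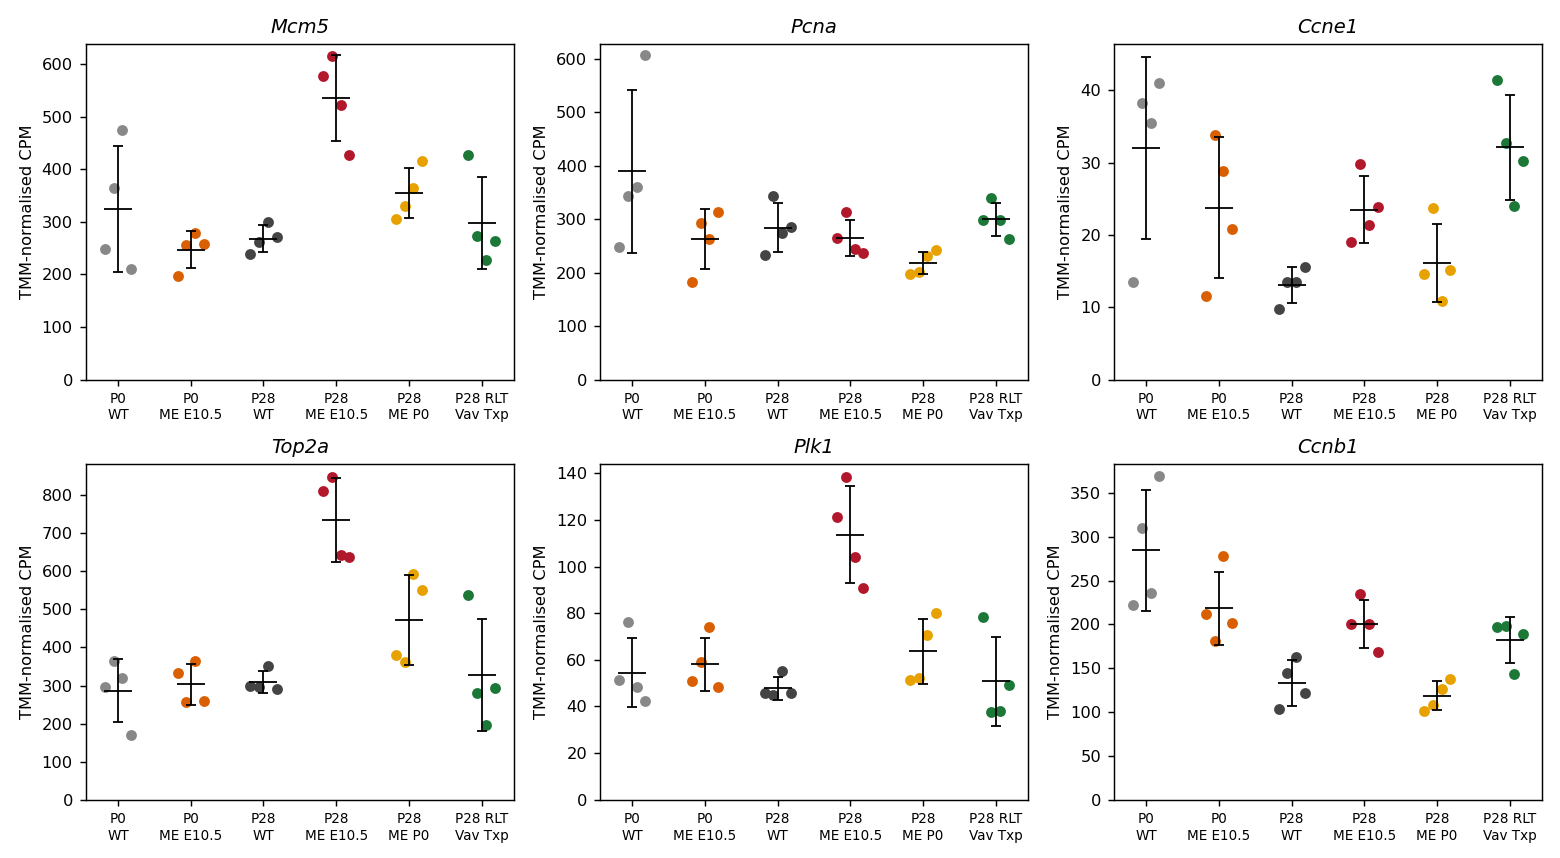
TMM-normalised CPM of 6 members in each library (points), with the group mean and SD (bars, n = 4), on linear axes from 0. Top2a and Plk1 are highest in the 4 P28 ME E10.5 libraries, Mcm5 is highest in 3 of them with P0 WT library 3 above library 4, Pcna differs little between the P28 groups, and Ccne1 and Ccnb1 are higher in most P0 and RLT Vav Txp libraries than in P28 WT.

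In the RLT Vav Txp group, most of the 39 genes did not differ from P28 WT by the test, and equality of levels was not tested. Of the 39, 1 was called, Ccne1, which was higher, where of all tested genes 4.12% were called, 2.64% higher and 1.48% lower. The median log2 fold change was 0.13 (all genes tested 0.01), with 30 of 39 values above 0. The groups did not overlap in 3 members, 7.69% of the list, against 11.5% of all genes. These were Ccne1, Ccnb2 (151.8 to 184.8 CPM against 116.6 to 150.7 in WT) and Cdk1 (170.3 to 217.2 against 121.2 to 169.8), each higher than WT. Ccne1 read 41.4, 32.8, 24.0 and 30.3 CPM, above the 9.73 to 15.6 CPM of WT (log2 fold change 1.29, SE 0.32, edgeR adjusted p = 0.0179). That call was lost without P28 WT library 1 (1.18, edgeR adjusted p = 0.0865), without P28 WT library 2 (1.31, 0.0570) and without RLT Vav Txp library 1 (1.15, 0.0623). Library 1 was the highest of its group for many members, with Mcm5 at 427, 274, 227 and 264 CPM, Top2a at 539, 281, 196 and 293, Mki67 at 124, 55.4, 58.8 and 78.1 and Plk1 at 78.2, 37.6, 37.9 and 49.4 CPM. For these 4 genes library 1 lay above every WT library, and the other 3 lay within or below the WT range. Pcna at 299, 339, 299 and 262 CPM, Rrm2 at 315, 237, 180.1 and 254, E2f1 at 61.2, 42.9, 35.1 and 35.7 and Ccnb1 at 197, 198, 143 and 189 CPM overlapped WT too.

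Set against E10.5-induced ME of the same age, the RLT Vav Txp group had lower levels in both sets. Of the 39 genes, 27 fell and none rose (11 of 19 replication genes, 16 of 20 G2/M genes), where of all tested genes 17.9% were called, 9.38% lower and 8.5% higher. The median was -0.77, against 0.12 over all genes tested, and in 22 members the groups did not overlap, as in 25.7% of all genes. The largest falls of the replication set were Mcm4 (log2 fold change -1.08, SE 0.23, edgeR adjusted p = 0.00242), Mcm2 (-1.06, SE 0.27, edgeR adjusted p = 0.00974) and Mcm6 (-1.02, SE 0.20, edgeR adjusted p = 0.00154). In the G2/M set they were Bub1b (-1.42, SE 0.30, edgeR adjusted p = 0.00267), the spindle assembly factor Tpx2 (-1.20, SE 0.25, edgeR adjusted p = 0.00198) and Top2a (-1.17, SE 0.25, edgeR adjusted p = 0.00248). Pcna (0.18), Gins2 (0.12), Tyms (0.40), Ccne1 (0.45), Ccne2 (0.46), Cdk1 (0.19) and Birc5 (0.01) had values above 0, and none of these passed. The count was 16 without RLT Vav Txp library 3 and 17 without its library 4, and the Mcm2 call was lost without library 4 (-0.96, edgeR adjusted p = 0.0512). This comparison and that with P28 WT share the RLT Vav Txp libraries, and that group had the higher macrophage and erythroid and the lower LSK marker sums given above, whose part was not tested.

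At P0, ME and WT livers did not differ in these genes by the test: 0 of 39 were called, where 0.642% of all tested genes were, and 7 had an unadjusted p under 0.05. DESeq2 called 1 member and limma voom 0. The test had no term for library number, and the P0 libraries were not fitted as pairs on their own. Deviations of same-numbered P0 libraries correlated at 0.66, 0.053, 0.37 and 0.46 for numbers 1 to 4. In that order the replication mean log2 CPM was 6.68, 7.40, 7.43 and 6.97 in WT and 6.48, 6.98, 7.09 and 6.91 in ME. The G2/M mean was 6.94, 7.18, 6.80 and 6.69 in WT and 6.73, 6.65, 7.08 and 6.59 in ME. The median log2 fold change was -0.23, and 32 of 39 values were below 0. Gins2 had the largest difference, 59.4, 81.9, 86.9 and 108 CPM in WT and 36.2, 66.8, 51.5 and 48.6 CPM in ME (-0.73, SE 0.19, edgeR adjusted p = 0.0722). Mcm5 read 249, 365, 474 and 211 CPM in WT and 197, 256, 279 and 257 CPM in ME (-0.39, SE 0.21, edgeR adjusted p = 0.409). Top2a read 296, 364, 319 and 169 CPM in WT and 333, 257, 364 and 259 CPM in ME (0.08, SE 0.24, edgeR adjusted p = 0.925). Pcna read 247, 343, 360 and 606 CPM in WT and 183, 292, 264 and 312 CPM in ME, E2f1 37.2, 52.7, 110 and 66.7 and 30.2, 56.4, 49.96 and 41.5 CPM, and Ccnb1 222, 310.3, 236 and 369 and 212, 181, 278 and 201 CPM. Mki67 read 78.0, 105, 83.8 and 81.1 CPM in WT and 62.8, 64.6, 110 and 75.0 CPM in ME, and Plk1 51.5, 76.2, 48.4 and 42.2 and 50.8, 59.1, 74.0 and 48.5 CPM. The groups overlapped in these genes and in 38 of the 39 members, Ccnb2 being the exception (193 to 206 CPM in WT, 137 to 170 CPM in ME, edgeR adjusted p = 0.192), where 3.74% of all genes did not overlap. Without P0 WT library 1, 4 members were called, and without P0 ME library 2, 1 was.

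Spread among the P0 WT libraries was wide. Library 4 was the lowest of its group for Mcm2 (81.6 CPM, against 216 to 354), Mcm6 (348, against 719 to 721) and Kif11 (67.3, against 104 to 167). The same library was the highest for Pcna (606 CPM, against 247 to 360), Cdk1 (414, against 148 to 242) and Birc5 (362, against 149 to 234). Libraries numbered 1 stood apart for other genes: Rrm2 read 127, 427, 341 and 420.3 CPM in P0 WT and 126, 470, 340.2 and 474 CPM in P0 ME, and Ccne1 13.5, 38.3, 35.5 and 41.0 and 11.5, 33.8, 28.8 and 20.8 CPM. Library 1 was the lowest of its group in each case, and these are also the libraries with the low macrophage and erythroid marker sums.

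Between ages, WT cells had lower levels of 5 members at P28 than at P0 and higher levels of none, where of all tested genes 7.68% were called, 4.56% lower and 3.12% higher. These were Ccne1 (log2 fold change -1.29, SE 0.32, edgeR adjusted p = 0.0130), Ccnb1 (-1.09, SE 0.18, edgeR adjusted p = 0.000431), the checkpoint kinase Bub1 (-0.81, SE 0.21, edgeR adjusted p = 0.0167), Cdk1 (-0.80, SE 0.21, edgeR adjusted p = 0.0201) and Ccnb2 (-0.55, SE 0.14, edgeR adjusted p = 0.0112). For Ccnb1 the lowest P0 library was at 222 CPM and the highest P28 library at 163 CPM, with no overlap. The median of the members was -0.34 and that of all genes tested -0.07. Groups did not overlap in 4 members, 10.3% of the list, as in 9.27% of all genes. The number of members called was 10 without P0 WT library 1, 3 without P28 WT library 1 or without P28 WT library 4, and 11 without both P0 libraries numbered 1. Cdk1 was not called without P0 WT library 4 (-0.46, edgeR adjusted p = 0.1004), without P28 WT library 1 (-0.72, 0.0813) or without P28 WT library 4 (-0.77, 0.0617). Bub1 was not called without P0 WT library 2 (-0.61, edgeR adjusted p = 0.0841) or P28 WT library 2 (-0.70, 0.0648), nor Ccne1 without P28 WT library 1 (-1.17, 0.0611).

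With ME, the direction was the opposite. Of the 39 members, 24 were higher at P28 than at P0 with E10.5 induction and none was lower (12 in each set), where of all tested genes 18.2% were called, 9.79% higher and 8.45% lower. The median was 0.86, against -0.18 over all genes tested, and groups did not overlap in 24 members, as in 25.4% of all genes. Mcm2 (log2 fold change 1.42, SE 0.28, edgeR adjusted p = 0.000946), Mcm4 (1.32, SE 0.23, edgeR adjusted p = 0.000338) and Mcm3 (1.28, SE 0.22, edgeR adjusted p = 0.000367) rose most among the replication genes. Bub1b (1.46, SE 0.30, edgeR adjusted p = 0.00169), Top2a (1.28, SE 0.25, edgeR adjusted p = 0.000933) and Tpx2 (1.10, SE 0.25, edgeR adjusted p = 0.00295) rose most in the G2/M set. Without both P0 libraries numbered 1, 20 members were higher and 2 were lower.

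The ME effect was then compared between ages within 1 model, as the difference between ME and WT at P28 minus that at P0. It was higher at P28 for 10 members and lower for none, where 0.468% of all tested genes were higher and 0.72% were called in either direction. The median of this difference was 1.16 over the members and -0.04 over all genes tested. Mcm4 (log2 difference 1.51, SE 0.32, edgeR adjusted p = 0.0302), Mcm5 (1.39, SE 0.30, edgeR adjusted p = 0.0314) and Rrm1 (1.27, SE 0.30, edgeR adjusted p = 0.0432) had the largest among the 6 replication genes called. Kif20a, a kinesin of cytokinesis (1.5, SE 0.35, edgeR adjusted p = 0.0414), Bub1 (1.29, SE 0.29, edgeR adjusted p = 0.0407) and the anaphase activator Cdc20 (1.18, SE 0.28, edgeR adjusted p = 0.0439) had the largest among the 4 G2/M genes. The count rested on single libraries. It was 0 without P0 WT library 2, P0 ME library 4, P28 WT library 1 or 2, or P28 E10.5-induced library 1 or 2, and 1 without P0 ME library 2 or P28 E10.5-induced library 3. It was 2 without P0 WT library 3, 3 without P0 ME library 1, 5 without P28 WT library 3 and 4 without P28 WT library 4, but 17 without P0 ME library 3 and 23 without P0 WT library 4. Scaled by plain library totals it was 0, with 8 genes higher and 65 lower over all genes.

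Compared as sets, the mean changes of the replication and the G2/M genes lay within 0.27 of each other in all 9 comparisons, a description with no test. The mean log2 CPM over the 19 replication genes was 6.84 ± 0.16 in P28 WT and 7.55 ± 0.18 in E10.5-induced ME, and that over the 20 G2/M genes 6.55 ± 0.17 and 7.44 ± 0.18 (SD, n = 4). The changes were 0.71 and 0.89, a difference of -0.18 between the sets. By library, the replication mean minus the G2/M mean was 0.18 to 0.46 in WT and 0.07 to 0.16 in ME, without overlap. The members' median log2 fold changes were 0.89 and 0.88. When a set's level in a library was taken as the median log2 CPM of its genes, the difference was -1.01; that is a change in the level of whichever gene stands in the middle, not a median of the genes' changes. P0-induced ME had means of 7.02 ± 0.16 and 6.79 ± 0.32, changes of 0.19 and 0.24 from WT. The RLT Vav Txp group had means of 7.02 ± 0.33 and 6.64 ± 0.33, and the replication set exceeded the G2/M set by 0.38 ± 0.09 there, against 0.11 ± 0.04 in E10.5-induced ME. The 4 RLT Vav Txp libraries (0.24 to 0.45) and the 4 E10.5-induced libraries did not overlap in that difference, and the contrast between them was 0.27 (1.07 with median levels, and -0.73 and -0.82 as the members' median log2 fold changes). The P0 groups had means of 7.12 ± 0.36 and 6.90 ± 0.21 in WT and 6.86 ± 0.27 and 6.76 ± 0.22 in ME. The libraries numbered 1 of both P0 groups were the only 2 of 24 in which the replication mean lay below the G2/M mean, by -0.25 in each.

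**Figure D4:**
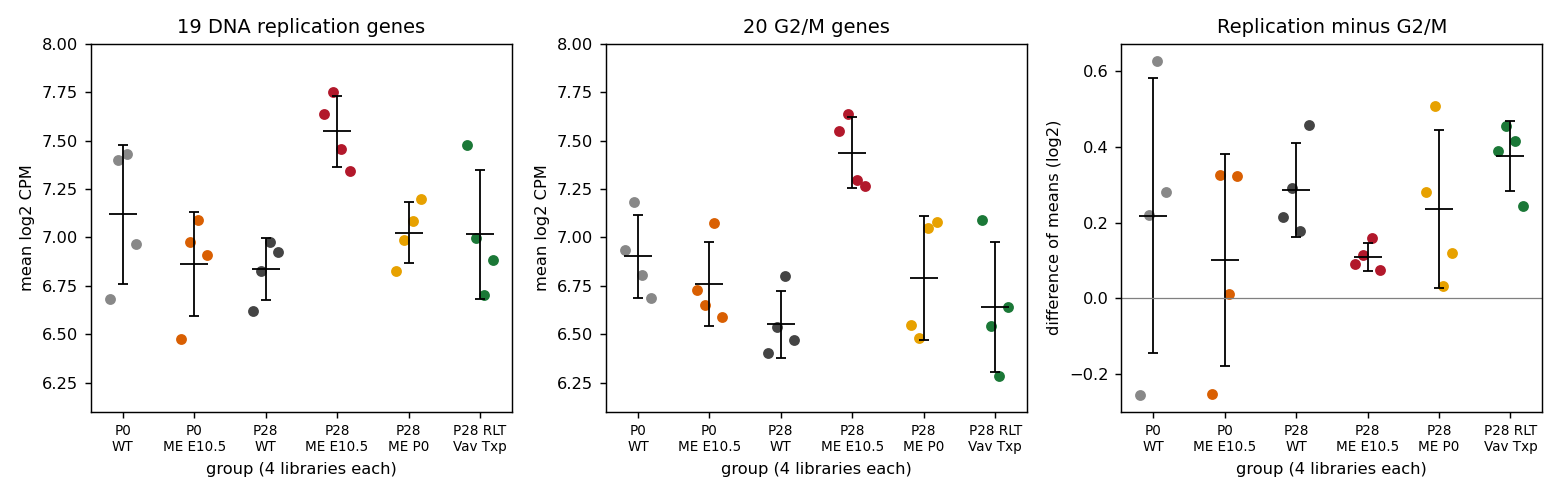
Mean log2 CPM over the 19 replication genes (left) and the 20 G2/M genes (middle) and the difference between them (right), as 1 point per library with the group mean and SD (n = 4). Both means are highest in P28 ME E10.5, and the difference is below 0 in 2 libraries, number 1 of each P0 group.

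Per kilobase of the reference transcript, the upper end of each set was held by few genes. Mcm6 had the highest mean level among the replication genes in 5 of the 6 groups (214 ± 19.0 CPM per kb in P28 WT and 416 ± 61.0 in E10.5-induced ME, SD, n = 4). Pcna had the highest in P0 WT (256 ± 101 CPM per kb, beside 215 ± 64.0 for Mcm6, within their spread). The lead of Mcm6 over Pcna also lay within their spread in P28 WT (Pcna 187 ± 30.0), P0 ME (184 ± 19.9 and 173 ± 37.5) and RLT Vav Txp (205 ± 66.0 and 197 ± 20.7). The lowest replication gene was Ccne1 in 3 groups, Mcm10 in P0 WT and RLT Vav Txp and Hells in P0 ME. By this length, Birc5 was the highest and Cenpf the lowest G2/M gene in all 6 groups (153 ± 29.6 CPM per kb for Birc5 in P28 WT). These orders rest on the transcript chosen for each gene. That of Birc5 has 947 bases, where all its annotated exons together cover 3402, and that of Cdk1 1253, where they cover 4934. Orders by another length were not computed. Cdk1 was next after Birc5 in 4 groups, whereas Top2a took that place in the E10.5-induced (141 ± 21.0 CPM per kb) and the P0-induced group (90.3 ± 22.5).

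In several comparisons the members' fold changes followed the length of their coding sequence, a feature the choice of genes did not use. In the comparison of E10.5-induced ME with P28 WT, Spearman's rho between log2 fold change and coding length was 0.68 over the 39 members, and 0.60 over 9641 coding genes whose mean log2 CPM was 3 or more. It was 0.75 and 0.64 for P0-induced ME against WT, and -0.79 and -0.51 for RLT Vav Txp against E10.5-induced ME. Between ages it was 0.68 and 0.43 with ME and 0.495 and 0.16 in WT, and for the difference between ME effects 0.64 and 0.37. At P0 it was 0.33 and 0.35 for ME against WT. For P0-induced against E10.5-induced ME it was -0.19 and -0.16, and for RLT Vav Txp against WT -0.18 and 0.05. These rho values are descriptions across genes of the same libraries, and genes are not independent replicates. The 5 shortest members, Birc5 (420 bases), Gins2 (555), Pcna (783), Cdk1 (891) and Tyms (921), were all among those not called in the E10.5-induced group. The 20 members of up to 1809 bases had a median log2 fold change of 0.65 with 10 called, and the 19 members of at least 2157 bases had 1.13 with 17 called. Among those 9641 coding genes split at the same length, the medians were 0.05 (9.99% called higher) and 0.56 (34% called higher). In both length classes the members' median thus lay above that of the 9641 coding genes of that class in the E10.5-induced group. In the P0-induced group it did not: the members' medians were 0.03 and 0.44, and those of the 9641 coding genes 0.03 and 0.44. Between ages with ME, 7 of the 20 shorter and 17 of the 19 longer members were called higher, against 16.1% and 32.4% of those coding genes. For the difference between ME effects 3 shorter and 7 longer members were, against 0.692% and 1.86%.

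By library, the mean log2 CPM of the long members minus that of the short members was 1.03 ± 0.05 in E10.5-induced ME and 1.01 ± 0.13 in P0-induced ME, against 0.50 ± 0.08 in P28 WT and 0.32 ± 0.24 in RLT Vav Txp (SD, n = 4). At P0 it was 0.21 ± 0.60 in WT, with library 4 at -0.63, and 0.29 ± 0.37 in ME. With offsets for coding length and GC content in the edgeR fit, 21 members were called higher in E10.5-induced ME than in WT (6 replication, 15 G2/M genes, median 0.60), and Mcm5 was not (0.50, edgeR adjusted p = 0.0543). With the same offsets, the median for P0-induced ME against WT was 0.04 with 0 members called, and 19 members were lower in RLT Vav Txp than in E10.5-induced ME (median -0.57). The cause of the relation with length was not tested.

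**Figure D5:**
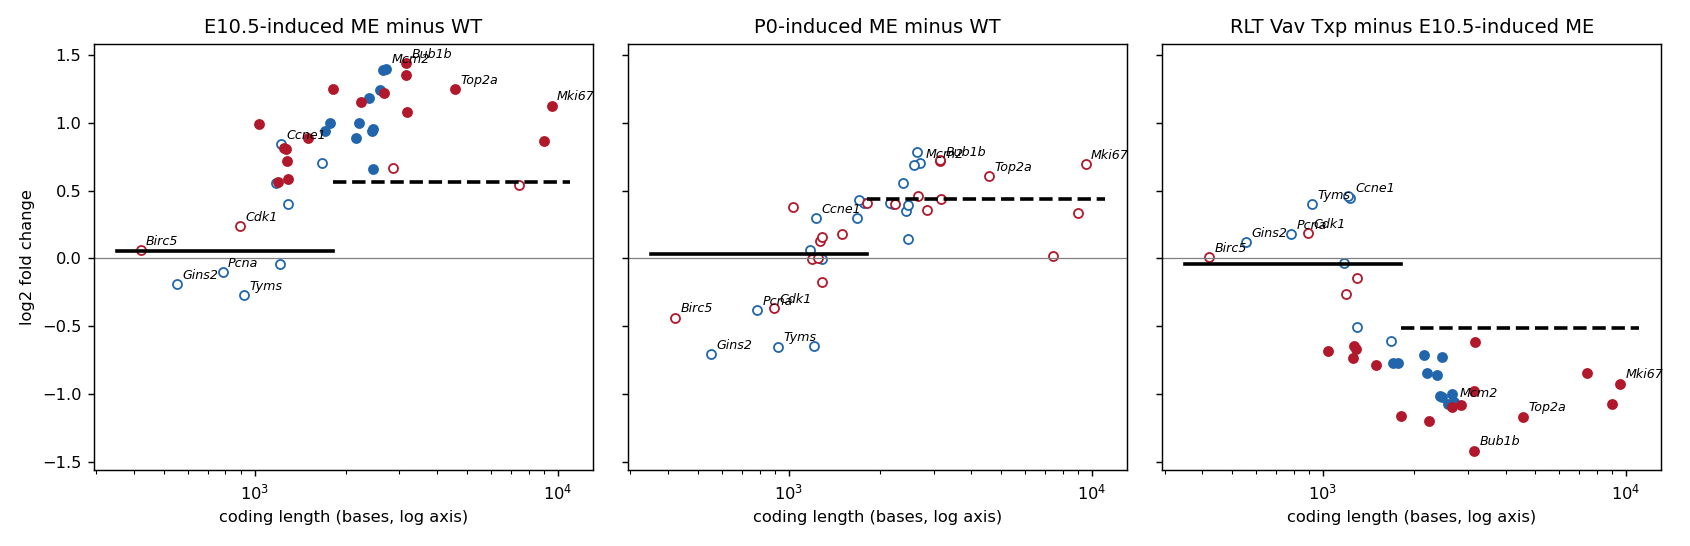
Log2 fold change of the 39 members against coding length on a log axis, for 3 comparisons at P28 (blue, replication genes; red, G2/M genes; filled, adjusted p under 0.05). The black lines are the medians of the coding genes with a mean log2 CPM of 3 or more, of up to 1809 bases (solid) and above (dashed). In the left panel most members lie above these lines, and in the middle panel they lie around them.

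Other genes of replication and mitosis were also higher with E10.5 induction, where 7.82% of all tested genes were. Of 47 further replication genes 17 rose and none fell against P28 WT (median 0.39), and of 50 further mitosis genes 28 rose and none fell (median 0.82). Kif4, a chromosome-bound kinesin (log2 fold change 1.95, SE 0.35, edgeR adjusted p = 0.00209), and Espl1, which codes for separase (1.68, SE 0.40, edgeR adjusted p = 0.00897), had the largest rises, followed by the maintenance DNA methyltransferase Dnmt1 (1.56, SE 0.33, edgeR adjusted p = 0.00524) and the polymerase epsilon gene Pole (1.43, SE 0.28, edgeR adjusted p = 0.00312). Of 21 genes for E2F and DREAM regulators 10 rose and none fell (median 0.65). Among the 9641 coding genes with a mean log2 CPM of 3 or more, 9.99% of those up to 1809 bases were called higher (median 0.05). Of the longer ones, 34% were (median 0.56). These 3 lists were not split by length in any comparison, so the part of length in their counts was not tested. In P0-induced ME 1 gene of these 3 lists was called, Rfc1, a subunit of the clamp loader (0.61, SE 0.15, edgeR adjusted p = 0.0468), and in RLT Vav Txp against WT 1 was, the CDK1 inhibitor kinase Wee1 (-0.72, SE 0.16, edgeR adjusted p = 0.00928).

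Against E10.5-induced ME, the RLT Vav Txp group was lower in 16 and higher in 2 of the 47 further replication genes, and lower in 25 and higher in 3 of the 50 mitosis genes, where 9.38% of all tested genes were lower and 8.5% higher. Espl1 (-1.54), Dnmt1 (-1.41) and the kinesin gene Kif2c (-1.37) had the largest falls. Between ages in WT, 1 of the 47 further replication genes and 4 of the 50 mitosis genes were lower at P28 and none higher. Of the 21 regulators 1 was lower and 1 higher, where 4.56% of all tested genes were lower and 3.12% higher. Among these called genes, the activator E2f2 was lower at P28 (log2 fold change -1.80, SE 0.37, edgeR adjusted p = 0.00335), as were the centromeric histone gene Cenpa (-1.19, SE 0.21, edgeR adjusted p = 0.000735) and the kinetochore gene Ndc80 (-0.82, SE 0.19, edgeR adjusted p = 0.00897), while Wee1 was higher (0.99, SE 0.16, edgeR adjusted p = 0.000414). With ME, 22 further replication genes were higher at P28 than at P0 and none lower (9.79% of all tested genes were higher), led by Dnmt1 (1.78), the polymerase alpha gene Pola1 (1.54) and the polymerase delta gene Pold1 (1.42). In the same comparison 25 of the 50 mitosis genes were higher and 1 lower. Of the 21 regulators 6 were higher and 2 lower, where 8.45% of all tested genes were lower. The difference between the ME effects at the 2 ages was called for 10 of the 47 further replication genes, all higher at P28 (0.468% of all tested genes), with Dnmt1 at 1.957 (SE 0.46, edgeR adjusted p = 0.0445) and Pola1 at 1.83 (SE 0.34, edgeR adjusted p = 0.0170). It was called for 1 of the 50 mitosis genes and 1 of the 21 regulators.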

How the data were processed

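RNA from sorted mouse LSK cells was extracted with an RNeasy kit and amplified with a SMARTer kit, per the labels' protocols. Reads were aligned to GRCm38 with STAR 2.7.9a and assigned to genes with featureCounts 2.0.3 of Subread, per the submitters' processing notes; the strand setting and the handling of reads with several positions are not given in the sources used here. The authors deposited 1 table of raw counts, of which 287 repeats of 168 identical entries were dropped. With at least 31233688 counts in every library, counting error is small beside the spread between libraries.

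Counts of all 24 libraries were fitted in edgeR 4.0.16 (R 4.3.3; robust quasi-likelihood, TMM scaling, filterByExpr with a minimum count of 10, 1 mean per group, 18 residual degrees of freedom), and p-values were adjusted by Benjamini-Hochberg over 23059 genes; a gene was called at 0.05. CPM values are TMM-normalised, and log2 CPM used a prior count of 2. Groups do not overlap where every library of one lies above every library of the other. The script was tested on simulated data. Alternatives used limma 3.58.1, DESeq2 1.42.0, other scalings, filters and subsets. Coding length is that of the GENCODE M21 transcript with the longest coding sequence, and the length classes, the offsets for length and GC content and the fits without both P0 libraries numbered 1 were chosen after seeing the data. Promoters are RefSeq's, on GRCm38.p6.

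The 39 members, the 3 pathway lists and the 8 marker lists were chosen with earlier results of these data known. Named with every library's value were Mcm5, Pcna, Rrm2, Ccne1, E2f1, Mki67, Top2a, Ccnb1 and Plk1; per comparison, the 3 genes of each set with the largest fold change among those called, any called member moving against its set, and up to 4 genes of the other lists; other members and libraries named were chosen after their values were seen.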

Additional observations from a re-analysis of the deposited data

Results flagged for a closer look

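In 4 cases a single library lay apart from the other 3 of its group by Dixon's criterion for 4 samples, among 72 groups examined (9 genes and the 3 set values in 6 groups), where chance gives about 3.6. E2f1 was at 38.7 CPM in library 1 of P0-induced ME, below the 48.5 to 50.1 CPM of the others. Top2a was at 350 CPM in library 3 of P28 WT, above 291 to 299 CPM, and Plk1 at 55.1 CPM in the same library, above 44.7 to 45.8 CPM. Ccnb1 was at 143 CPM in library 3 of the RLT Vav Txp group, below 189 to 198 CPM.

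The effect of E10.5-induced ME differed between P28 marrow and P0 liver for 10 members, by the interaction term of the edgeR model. The log2 differences were 1.51 for Mcm4, 1.39 for Mcm5, 1.27 for Rrm1, 1.25 for Cdc45, 1.21 for Hells and 1.19 for Mcm6 among the replication genes. Among the G2/M genes they were 1.5 for Kif20a, 1.29 for Bub1, 1.18 for Cdc20 and 0.946 for Ccnb2. Leaving out single libraries gave 0 to 23 calls, and age and tissue cannot be told apart.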

How the results depend on the processing

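No named gene changed direction in the fits run, and no count of members turned from higher to lower. For the members called with E10.5-induced ME against WT at P28, in RLT Vav Txp against E10.5-induced ME, and in ME at P28 against P0, every alternative other than leaving out 1 library stayed within 1.5 times the reported count, as did RLT Vav Txp against WT. Members called at P0 between ME and WT were 1 with DESeq2 and 1 with offsets for coding length and GC content. For P0-induced ME against WT the counts were 1 with RLE factors, 1 with plain library totals, 2 with DESeq2, 15 with limma voom and 18 with only the 2 groups fitted. For P0-induced against E10.5-induced ME they were 3 with DESeq2, 37 with limma voom and 24 with only the 2 groups fitted. For WT at P28 against P0 they were 3 with plain totals, 3 with limma voom, 1 with only the 2 groups fitted and 11 without both P0 libraries numbered 1. For the difference between ME effects they were 3 with RLE factors, 0 with plain totals, 20 with DESeq2, 16 with limma voom, 3 without a filter, 2 with only the 4 groups fitted and 6 without both P0 libraries numbered 1. The cause was not tested.

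Leaving out 1 library at a time gave 0 to 4 calls at P0, 19 to 28 for E10.5-induced ME against WT, 0 for P0-induced ME against either group, 0 to 1 for RLT Vav Txp against WT, 16 to 28 against E10.5-induced ME, 3 to 10 for WT between ages, 19 to 24 for ME between ages and 0 to 23 for the difference between ME effects. The difference between the sets ranged from -0.27 to 0.02 at P0, -0.21 to -0.12 for E10.5-induced ME against WT, -0.14 to 0.02 for P0-induced ME against WT, 0.05 to 0.15 for RLT Vav Txp against WT, 0.03 to 0.19 for P0-induced against E10.5-induced ME, 0.24 to 0.31 for RLT Vav Txp against E10.5-induced ME, -0.09 to 0.20 for WT between ages, -0.11 to 0.08 for ME between ages and -0.20 to 0.10 for the difference between ME effects. The ranges that cross 0 show that its sign rested on single libraries there, and without both P0 libraries numbered 1 it was -0.09 for WT and -0.11 for ME between ages. With a set's level taken as the median log2 CPM of its genes, which follows the gene in the middle and is no median of changes, it was -1.01 for E10.5-induced and -0.88 for P0-induced ME against WT, 1.07 for RLT Vav Txp against E10.5-induced ME, 0.38 for WT and -0.54 for ME between ages and -0.92 for the difference between ME effects.

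Over the 39 named results, 597 of 710 alternative values kept their call and 113 lost it, 78 of these with 1 library left out. Over all genes, the median for E10.5-induced ME against WT was -0.10 with TMM, -0.18 with RLE factors and -0.23 with plain totals. Libraries with the same number did not pair in every group: 14 of 40 correlations of their deviations were over 0.1 (between P0 WT and P0 ME 0.66, 0.053, 0.37 and 0.46 for numbers 1 to 4), and a library correlated best with its own number in 25 of 80 cases. On the 20 numbered libraries, members called with the replicate block were 3 for P0-induced ME against WT and 19 for the difference between ME effects, and without the block 3 and 18.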
